A study of Mus musculus with 6 samples.

Results

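The liver-type transcripts examined here came from 10 genes that hepatoblasts, the epithelial progenitors of the fetal liver, express at high level: Alb, Afp, Apoa1, Apoa2, Ttr, Trf, Ahsg, Rbp4, Krt8 and Krt18. Members were all probe sets whose platform annotation names exactly 1 gene symbol and whose symbol is one of these, with no filter on low signals. That gave 21 of 45037 probe sets and 9 of the 10 genes. Trf, which encodes the iron carrier transferrin, has no value here, because the 1 probe set annotated to it also names another gene. The rule used no signal, although the genes were proposed with earlier results of these arrays known.

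The samples were megakaryocyte progenitors sorted by flow cytometry from C57BL/6 mice, all of the GATA1s genotype, in which the transcription factor GATA1 is present in its amino-terminally shortened form. The sort kept cells negative for lineage markers and Sca-1 and positive for c-kit, CD150 and CD41. The first group was 3 arrays of adult bone marrow, from mice 12 to 18 weeks old, and the other 3 arrays of E13.5 fetal liver. Both groups carry the shortened form, and cells with the full-length protein were not analysed here; tissue and developmental age cannot be told apart. The labels give the arrays as biological replicates without saying how many animals went into each, so p-values measure only the spread between these samples.

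Hepatoblasts lie next to the blood-forming cells of the fetal liver and secrete most of the early plasma proteins. Alb and Afp encode the adult and the fetal carrier protein of plasma and are paralogues that sit side by side in the genome. Apoa1 and Apoa2 encode the main proteins of high-density lipoprotein, Ttr and Rbp4 the complex that carries retinol, and Ahsg the glycoprotein fetuin-A. Krt8 and Krt18 encode the keratin partners that together form the intermediate filaments of simple epithelia. Blood progenitors are not known for secreting these plasma proteins.

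Signals are MAS5 intensities, which are linear and have no offset. The level of background was taken as a signal of 10.6, the 95th percentile of 27 control probe sets for bacterial transcripts that had not been spiked in, over all 6 arrays; it is called the control level below. Between 68% and 74.2% of probe sets lay above the control level. Bone marrow replicate 1 had the highest signals among dim probe sets, with a 25th percentile of 10.1 against 6.22 and 7.26 on the other bone marrow arrays. Differences are given as log2 fold changes, positive where fetal liver was the higher, with a limma fit across all 45037 probe sets and p-values adjusted by Benjamini-Hochberg; a probe set was called at an adjusted p under 0.05. Of the 13 megakaryocyte genes measured, all lay above the control level on every array of both tissues, and their summed signal was 34470 to 37961 in bone marrow and 30587 to 47220 in fetal liver. Of these 13, Gata1, Gp9 and Tubb1 were called higher in fetal liver and Kit lower, and without fetal liver replicate 1 the higher calls were 7. Itga2b, which encodes the CD41 of the sort, was at 4418 ± 540 in the marrow arrays and 4521 ± 1049 in the fetal ones (SD, n = 3 each). Gata1 was at 2999 ± 476 and 4188 ± 372, which checks no label, because both groups share the genotype.

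Apart from Krt18 and Afp, the hepatoblast genes had signals of at most 55.2 in the sorted fetal liver cells, and none of them was called between the tissues. The only member calls were of Krt18 and Afp, which were higher in adult bone marrow than in fetal liver, by 2.77-fold and by 3.57-fold on the brighter Afp probe set. Alb, Apoa2 and the best separated Apoa1 probe set had higher signals on all 3 fetal liver arrays than on any bone marrow array, but at signals of 23.0 to 55.2 and short of the threshold. Ttr, Ahsg, Rbp4 and Krt8 ran from 0.277 to 21.9 in bone marrow and from 2.04 to 39.4 in fetal liver, on both sides of the control level. The name hepatoblast transcripts thus describes where these genes are known to be expressed, and not a pattern called for the set in these samples.

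Of the 21 member probe sets, limma called 3 lower and 0 higher in fetal liver, and 18 were not called. Over all probe sets the share called lower was 9.59% and the share called higher 6.67%. The 3 lower calls are 14.3% of the members, come from only 2 genes, and stand near that background. At an unadjusted p under 0.05 from limma, 7 of the 21 member probe sets were higher and 4 lower, where 12.7% and 15.1% of all probe sets were. The 7 are a larger share than that 12.7%. They are dim probe sets of Alb, Apoa1, Apoa2, Ttr and Krt8, some of the same gene. The fetal liver arrays lay wholly above the bone marrow arrays for 4 members and wholly below them for 4 (19% each), against 15.6% and 17.1% of all probe sets, and they overlapped for the other 13. The median log2 fold change of the members was 0.39, beside 0.01 over all probe sets, and 15 were positive. Only 7 of the 21, from Afp, Apoa1, Apoa2 and Krt18, had a mean log2 signal above the 40th percentile of all probe sets, a signal of 22.9; no such filter was applied here. How many members were called higher depended on the setting, from 0 to 5, and the called ones were dim probe sets of Alb, Apoa1, Apoa2, Ttr and Krt8.

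**Figure D1:**
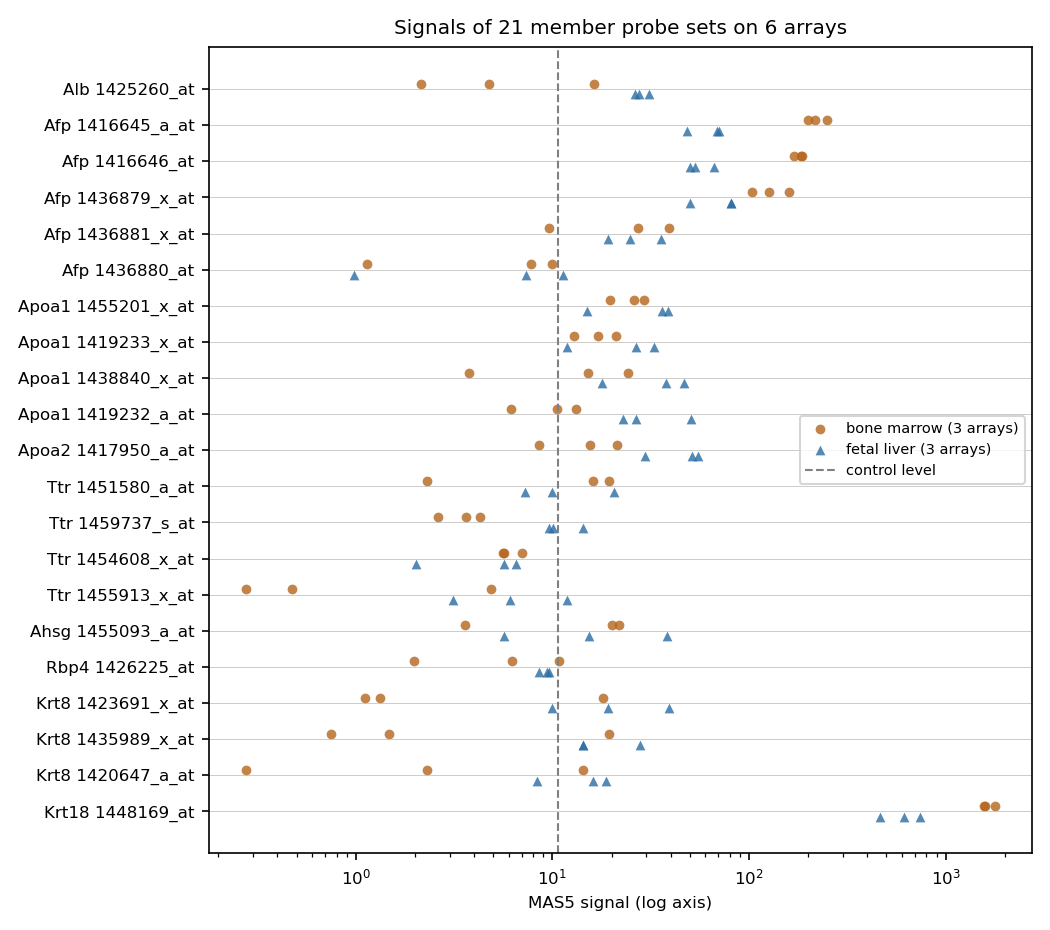
MAS5 signal (log axis) of each of the 21 member probe sets, 1 row each, on the 3 bone marrow arrays (circles) and the 3 fetal liver arrays (triangles); the dashed line is the control level of 10.6. Only Krt18 and the upper 3 Afp rows stand well to the right of the line in bone marrow, and in these 4 rows all fetal liver triangles lie to the left of all circles.

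Alb, the albumin gene, was represented by 1 probe set, 1425260_at. Its signal was 16.3, 4.75 and 2.14 on bone marrow replicates 1, 2 and 3 and 30.9, 26.4 and 27.6 on the fetal liver replicates. The fetal liver arrays were close to each other and all above the control level, whereas 1 of 3 bone marrow arrays, replicate 1, was above it, and the tissues did not overlap. Because the bone marrow geometric mean lay below the control level, the difference is a bound: Alb was at least 2.30-fold higher in fetal liver. The fitted log2 fold change was 2.36 ± 0.75 (SE, limma adjusted p = 0.0568), which missed the threshold. Alb was called in 8 of 15 alternative settings, with values from 1.20 to 3.15 and adjusted p from 0.0120 to 0.172. Without bone marrow replicate 1 it was 3.15 (limma adjusted p = 0.0120). The deposited values thus place Alb above the control level in fetal liver, at a mean signal of 28.3 ± 2.31 (SD, n = 3), and leave its level in bone marrow as a bound.

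Afp, the alpha-fetoprotein gene, is known as a fetal gene of liver and yolk sac that is shut down after birth, and its signal was the higher in adult cells. Probe set 1416645_a_at gave 216, 199.5 and 248 in bone marrow and 70.7, 48.5 and 68.5 in fetal liver. Probe set 1416646_at gave 184, 169 and 186 in bone marrow and 50.2, 66.4 and 53.5 in fetal liver. On both, every bone marrow array was far above every fetal liver array, and every array of both tissues lay above the control level. The log2 fold changes were -1.84 ± 0.24 (SE, limma adjusted p = 4.55e-04) and -1.67 ± 0.23 (limma adjusted p = 6.94e-04). Both calls held in all the alternatives in which these probe sets were tested, 16 and 15 of them, at values from -1.93 to -1.34.

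The other 3 Afp probe sets did not give the same picture. Probe set 1436879_x_at gave 159.9, 127 and 104 in bone marrow and 80.8, 50.2 and 80.8 in fetal liver, again without overlap, at a log2 fold change of -0.89 ± 0.29 that missed the threshold (limma adjusted p = 0.0609). Probe set 1436881_x_at gave 39.4, 9.67 and 27.2 against 19.3, 24.9 and 35.7, with overlapping tissues and a log2 fold change of 0.24 ± 0.58 (limma adjusted p = 0.845). Probe set 1436880_at lay below the control level on all bone marrow arrays and on 2 of 3 fetal liver arrays. In Affymetrix names the ending _x_at marks probes that also match other sequences, so those rows are less certain to report Afp. The 5 probe sets are annotated to the same gene and are not replicates of each other, and which transcripts they match was not examined. Those with brighter signals showed the difference and the dim ones did not.

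The start regions of Alb and Afp are shown because these neighbours, with no protein-coding gene between them, had their higher signals in opposite tissues. Both windows run from 250 bases before to 50 bases after the annotated gene start, 5′ to 3′ on the plus strand, from RefSeq on GRCm38.p6: Alb is chr5:90460620-90460919 and Afp chr5:90490464-90490763. Capitals are reserved for GATAA, the core bound by GATA factors, and its reverse complement TTATC, and neither window holds one.
Alb: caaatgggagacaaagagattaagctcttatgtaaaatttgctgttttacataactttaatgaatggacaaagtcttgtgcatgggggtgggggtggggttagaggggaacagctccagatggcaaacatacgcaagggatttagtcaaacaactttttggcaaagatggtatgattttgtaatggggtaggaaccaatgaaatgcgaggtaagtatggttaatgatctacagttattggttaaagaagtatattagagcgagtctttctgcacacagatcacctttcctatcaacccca
Afp: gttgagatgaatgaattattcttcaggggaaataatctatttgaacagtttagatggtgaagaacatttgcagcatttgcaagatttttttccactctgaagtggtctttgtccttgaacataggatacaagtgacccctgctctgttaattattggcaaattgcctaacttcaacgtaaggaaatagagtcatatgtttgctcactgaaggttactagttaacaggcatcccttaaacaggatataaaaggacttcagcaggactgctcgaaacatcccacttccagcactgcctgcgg

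GATAA was searched on both strands because GATA1 is the altered factor of all these samples, and was chosen after the values were seen. The table held windows for 8 members, 10 in all, and 5 of the 10, each of another member, had a match, where 25.4% of all 32851 windows of that length did. A match is a string of letters and says nothing about binding in these cells.

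Apoa2 and Apoa1 had the next clearest fetal signals. Apoa2 (1417950_a_at) gave 15.5, 8.60 and 21.4 in bone marrow and 51.3, 55.2 and 29.8 in fetal liver, without overlap. Its log2 fold change of 1.63 ± 0.50 just missed the threshold (limma adjusted p = 0.0508), and 6 of 16 alternatives called it. Of the 4 Apoa1 probe sets, 1419232_a_at gave 10.6, 6.16 and 13.1 in bone marrow and 50.6, 23.0 and 26.7 in fetal liver, again without overlap. It was at least 2.76-fold higher in fetal liver, with 1 of 3 bone marrow arrays above the control level, at a fitted log2 fold change of 1.73 ± 0.55 (limma adjusted p = 0.0590; called in 4 of 14 alternatives). The remaining Apoa1 probe sets, all of the _x_at kind, ran from 3.78 to 29.3 in bone marrow and from 11.9 to 46.7 in fetal liver, overlapped between tissues, and had log2 fold changes of 0.17, 0.39 and 1.50 with limma adjusted p of 0.876, 0.717 and 0.212. Fetal liver replicate 2 was the lowest fetal array on all 4 Apoa1 probe sets, and it was the highest fetal array for Apoa2, so the apolipoproteins did not rise and fall together over the fetal liver arrays.

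The retinol carriers and fetuin-A had no settled level. Among the 4 Ttr (transthyretin) probe sets, only 1459737_s_at separated the tissues, at 2.62, 3.64 and 4.28 in bone marrow and 9.62, 10.04 and 14.4 in fetal liver, where 1 of 3 arrays passed the control level (log2 fold change 1.70 ± 0.65, limma adjusted p = 0.115). Another Ttr probe set, 1451580_a_at, gave 19.5, 16.2 and 2.30 in bone marrow and 20.6, 10.01 and 7.27 in fetal liver (0.35 ± 0.87, limma adjusted p = 0.852). The other Ttr probe sets stayed below the control level on every array except fetal liver replicate 2 of 1455913_x_at. Rbp4, the retinol-binding protein gene, was below it on all fetal liver arrays, at 8.53, 9.57 and 9.36, and above it on 1 bone marrow array (10.8; 0.84 ± 0.76, limma adjusted p = 0.545). Ahsg gave 21.9, 3.59 and 20.2 in bone marrow and 38.4, 15.4 and 5.65 in fetal liver, a spread wider than any tissue difference (0.36 ± 0.89, limma adjusted p = 0.850).

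**Figure D2:**
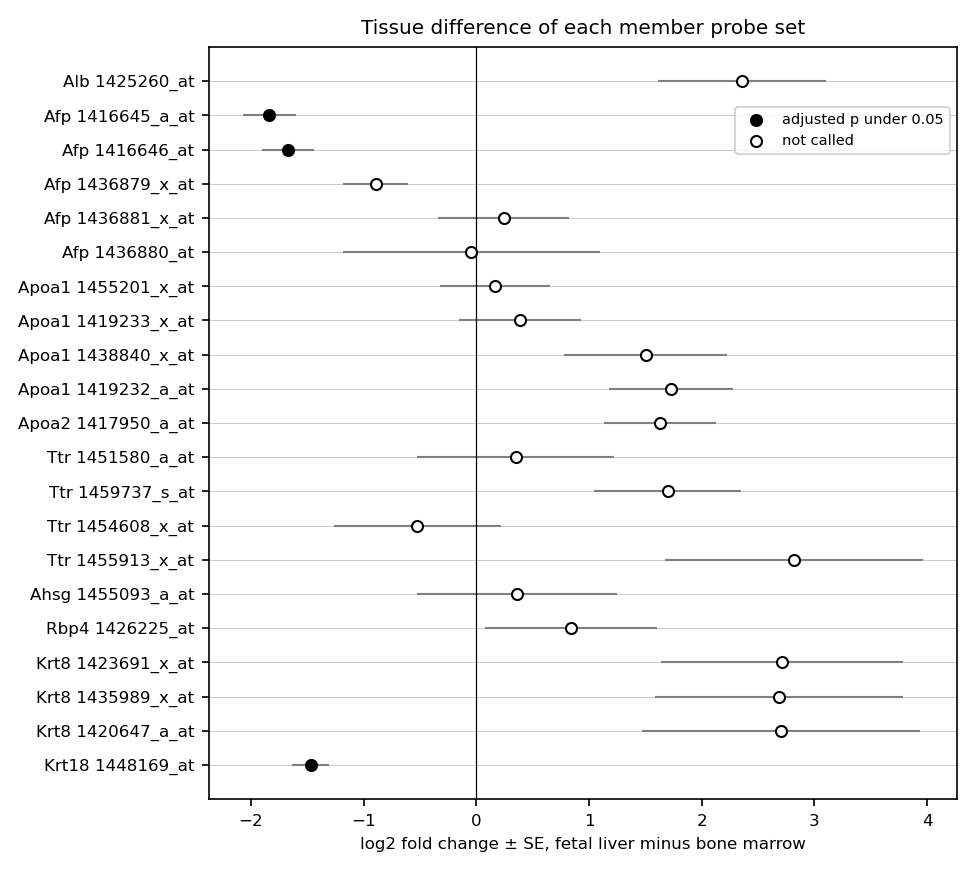
Log2 fold change (positive: higher in fetal liver) with its SE from the limma fit, for each member probe set; filled points had an adjusted p under 0.05. The 3 filled points, Krt18 and 2 Afp probe sets, all lie left of 0, and the widest bars belong to probe sets near the control level.

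Krt18, the type I keratin of simple epithelia, was the member with the smallest adjusted p. Its probe set 1448169_at gave 1776, 1593 and 1571 in bone marrow and 738, 614 and 462 in fetal liver. Every bone marrow array was above every fetal liver array, and all 6 were far above the control level. The means were 1647 ± 113 and 605 ± 138 (SD, n = 3 each), a log2 fold change of -1.47 ± 0.16 (SE, limma adjusted p = 1.65e-04). The call held in all 17 alternatives, at -1.63 to -1.13. Krt8, the type II keratin that pairs with it, was below the control level on bone marrow replicates 2 and 3: 1423691_x_at gave 18.1, 1.11 and 1.33 in bone marrow and 19.1, 39.4 and 9.94 in fetal liver. The other 2 Krt8 probe sets followed the same course, with bone marrow replicate 1 at 14.3 and 19.3 and the other bone marrow arrays at 0.278 to 2.30. None of the 3 was called (log2 fold changes 2.68 to 2.71, limma adjusted p = 0.124, 0.139 and 0.187). Without bone marrow replicate 1 the log2 fold changes were 4.01, 4.08 and 4.09, and limma called all 3 higher (adjusted p = 0.0125, 0.00922 and 0.0323). That array was the only bone marrow array above the control level for Krt8, so leaving it out was bound to widen the difference. Counting that setting, 1435989_x_at and 1420647_a_at were each called in 2 of 14 alternatives. Since 2 of the 3 bone marrow arrays were far below the control level, the fitted size is no measure of the true fold. With those arrays set to the control level, the fetal liver geometric means were 1.16-fold to 1.54-fold those of bone marrow. The tissues overlapped on all 3 probe sets, so no least fold is claimed for Krt8.

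The start regions of the keratin pair are shown because these genes are also direct neighbours, and only Krt18 had a level well above background. The windows are again 250 bases before to 50 after the gene start on GRCm38.p6, 5′ to 3′ on the gene's own strand: Krt8 is chr15:102004293-102004592 on the minus strand and Krt18 chr15:102027966-102028265 on the plus strand. Capitals mark GATAA or TTATC.
Krt8: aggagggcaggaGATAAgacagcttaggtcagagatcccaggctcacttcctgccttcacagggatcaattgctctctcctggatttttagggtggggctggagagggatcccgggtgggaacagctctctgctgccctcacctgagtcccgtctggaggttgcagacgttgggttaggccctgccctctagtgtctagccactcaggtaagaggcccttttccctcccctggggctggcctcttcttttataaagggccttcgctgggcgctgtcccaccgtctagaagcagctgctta
Krt18: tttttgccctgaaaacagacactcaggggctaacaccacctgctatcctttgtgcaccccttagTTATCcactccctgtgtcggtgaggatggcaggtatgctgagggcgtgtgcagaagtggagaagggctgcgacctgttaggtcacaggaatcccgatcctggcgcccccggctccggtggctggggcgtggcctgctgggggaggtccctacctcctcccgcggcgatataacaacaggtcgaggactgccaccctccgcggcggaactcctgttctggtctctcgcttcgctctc

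Each keratin window held 1 GATAA core, on the gene's strand at -238 in Krt8 and on the opposite strand at -186 in Krt18, counted from the first base of the gene as 1. No binding was measured here.

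The members varied most where they were dim. The SD of log2 signal over the 3 bone marrow arrays ran from 0.08, for Afp 1416646_at, to 2.84, with a median of 1.05; in fetal liver it ran from 0.09, for Rbp4, to 1.89, with a median of 0.61. Leaving aside Krt18 and the 3 brighter Afp probe sets, the other 17 lay between 0.277 and 39.4 in bone marrow and no higher than 55.2 in fetal liver. Of these 17, 12 had their highest bone marrow signal on replicate 1 and none on replicate 2, where 52.5% and 20.7% of all probe sets with a mean signal under 22.9 did. The array with generally higher dim signals was thus also the one that carried most of the bone marrow signal of Krt8 and Alb; the part of the one in the other was not tested. In fetal liver the highest array was replicate 1 for 5, replicate 2 for 5 and replicate 3 for 7 of them, so no single fetal liver sample was highest for most of them.

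Counted by the control level, 12 of 21 member probe sets (6 genes) were above it on all 3 fetal liver arrays and 2 on none. In bone marrow 6 (3 genes) were above it on all arrays and 4 on none. Of all probe sets, 68.9% to 74.2% were above it on single bone marrow arrays and 68% to 70.9% on single fetal liver arrays. The share above it on every array of a tissue was not counted. The 6 genes in fetal liver were Alb, Afp, Apoa1, Apoa2, Krt8 and Krt18, and the 3 in bone marrow Afp, Apoa1 and Krt18. These counts move with the level chosen: with the highest control signal, 20.9, in its place, 7 probe sets were above it throughout fetal liver. Throughout bone marrow only Krt18 and the 3 brighter Afp probe sets were.

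**Figure D3:**
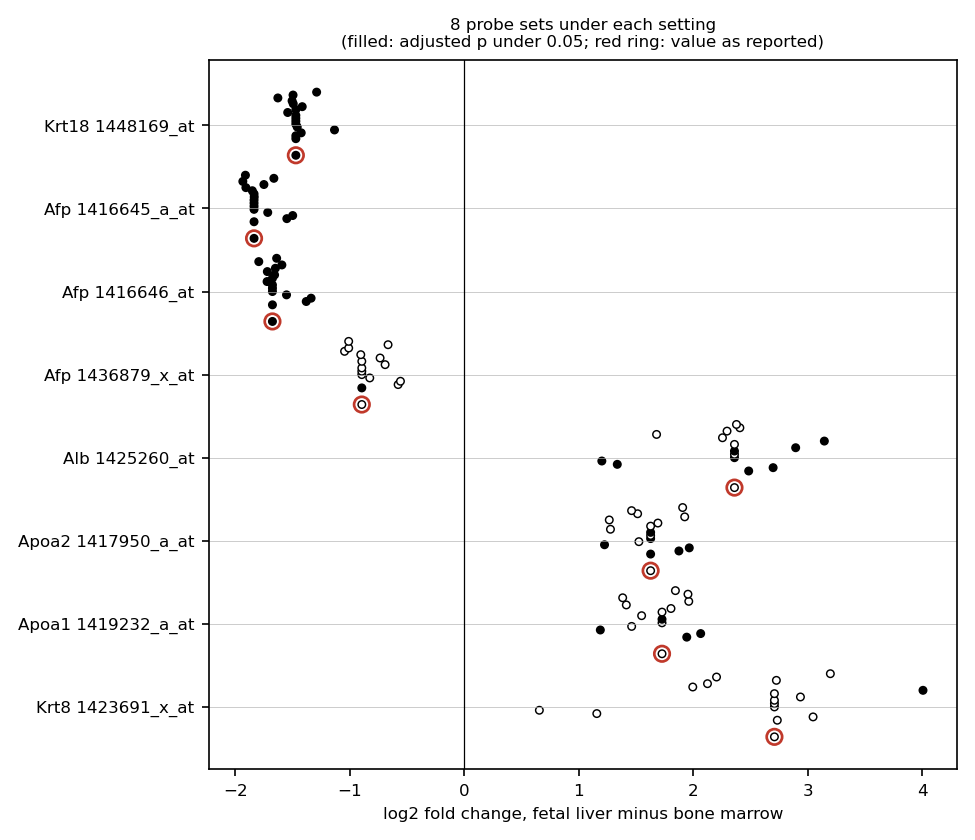
Log2 fold change (positive: higher in fetal liver) of 8 member probe sets under each setting in which they were tested; filled points had an adjusted p under 0.05 and the red ring marks the value reported. Krt18 and the upper 2 Afp rows are filled throughout, whereas Alb, Apoa2 and Apoa1 are filled in 8, 6 and 4 alternatives.

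Scaling bears on these calls. With median centring, the middle log2 fold change over all probe sets went from 0.01 to 0.34 and turned the split of calls from 3003 higher and 4321 lower to 9079 higher and 3034 lower; quantile normalization gave 4002 and 3747. Under both, Alb, Apoa1 1419232_a_at and Apoa2 were called higher, and Afp and Krt18 were still lower. The array scaling thus moved Alb, Apoa1 and Apoa2 across the threshold and left the direction of Afp and Krt18 as it was.

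A wider set of liver genes was read in the same way, each gene by its brightest probe set. Of 73 such genes outside the members, 3 were called higher in fetal liver, 9 lower, and 61 were not called; over all 18193 genes 9.32% were called higher and 11.7% lower. Their median log2 fold change was -0.04, and 25 were below the control level on every bone marrow array and 27 on every fetal liver array. In bulk RNA, fewer cells of a type and less RNA per cell cannot be told apart, here and for the members.

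Among 31 other plasma protein genes, 2 were called higher, 3 lower and 26 not (median log2 fold change 0.18). Apoe, an apolipoprotein that macrophages also make, gave 89.1, 103 and 94.96 in bone marrow and 535, 337 and 241 in fetal liver, and rose by 1.88 ± 0.27 on the log2 scale (SE, limma adjusted p = 9.09e-04). Apoc1 gave 41.1, 13.6 and 27.3 against 87.2, 91.5 and 53.6 and was called (1.60 ± 0.46, limma adjusted p = 0.0373), a call lost in 7 alternatives. Both had the same sign as the Apoa2 value and all 4 Apoa1 values. Of the other apolipoprotein genes listed, Apoh, Apom, Apoc3 and Apoa5 also had that sign, and Apob, Apoc2 and Apoa4 the opposite one. Only Apob of these was called. Hp, which encodes the haemoglobin scavenger haptoglobin and is also a neutrophil granule gene, went the other way, from 1349.6, 2867 and 2648 in bone marrow to 49.3, 94.0 and 55.6 in fetal liver (-5.09 ± 0.31, limma adjusted p = 3.13e-06). Serpinf1 fell by 1.25 ± 0.17 on the log2 scale (limma adjusted p = 6.89e-04). Apob, the structural protein of low-density lipoprotein and the remaining call, was at least 2.53-fold lower in fetal liver, where no array passed the control level (limma adjusted p = 0.0493), a call lost in 7 of 15 alternatives. In each tissue, counted separately, 12 of the 31 genes were below the control level on every array.

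**Figure D4:**
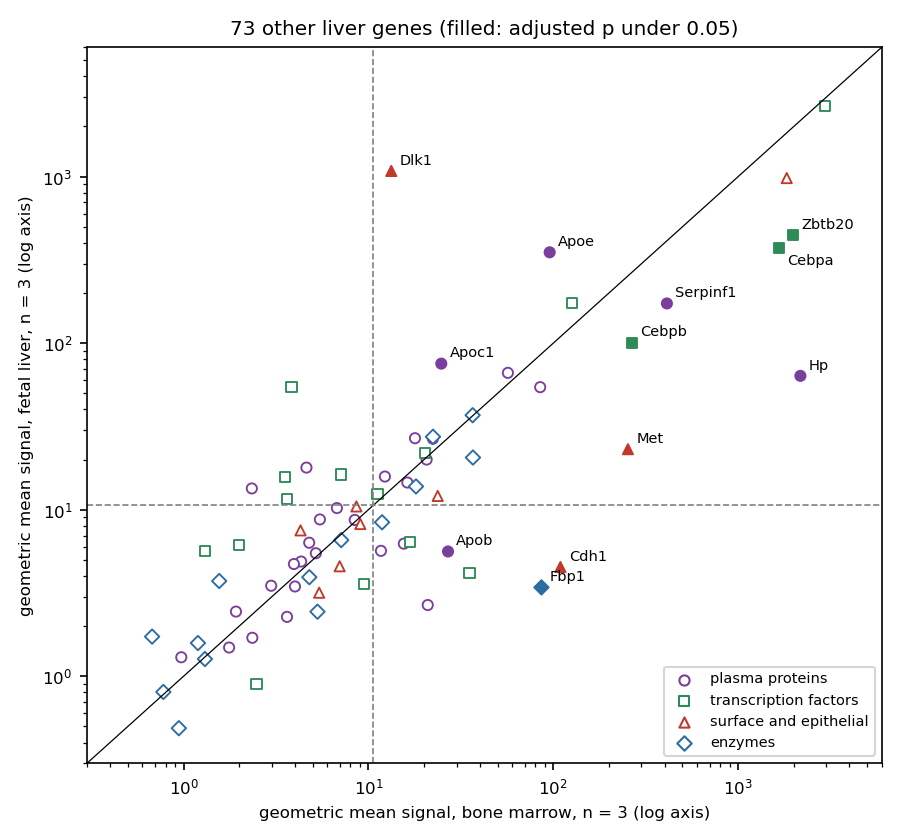
Geometric mean signal in fetal liver against that in bone marrow (both log axes, n = 3 arrays each) for the 73 liver genes outside the members, by list; the diagonal is equality, dashed lines mark the control level of 10.6, and filled symbols had an adjusted p under 0.05. Many open symbols crowd at or below the dashed lines, Dlk1 is the highest above the diagonal, followed by the open square of Prox1, and Hp, Met, Cdh1 and Fbp1 stand far below it.

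Among 17 liver transcription factors, 0 were called higher and 3 lower by limma (median 0.11; at an unadjusted p under 0.05, 3 were higher and 5 lower). Cebpa, a factor of both liver and myeloid cells, fell from 1672 ± 141 to 376 ± 68.6 (SD, n = 3 each; limma adjusted p = 6.33e-06), and Cebpb fell by 1.40 ± 0.36 on the log2 scale (limma adjusted p = 0.0231), a call lost in 9 alternatives. Zbtb20, known in liver as a repressor of Afp after birth, was at 1990.3 ± 166 in bone marrow and 447 ± 41.8 in fetal liver (-2.16 ± 0.12, limma adjusted p = 1.82e-06). Zbtb20 and the brighter Afp probe sets both had their higher signals in bone marrow, and a link between the 2 genes was not tested. Hhex, which acts in liver bud and blood alike, was bright in both tissues at 2946 ± 291 and 2677 ± 483 and was not called; its log2 fold change of -0.15 turned to 0.19 under median centring. A pair of the factors that define hepatoblasts, named after their values were seen, had values of opposite sign without passing the threshold. Prox1 gave 12.5, 12.4 and 0.364 in bone marrow and 60.02, 55.6 and 49.2 in fetal liver, at least 4.63-fold higher (limma adjusted p = 0.0501), and was called in 11 of 15 alternatives. Hnf4a gave 15.3, 48.7 and 58.9 in bone marrow and 0.810, 13.53 and 6.54 in fetal liver (limma adjusted p = 0.0627), and was called lower in 4 of 15.

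Among 10 surface and epithelial genes, 1 was called higher and 2 lower (median -0.69). Dlk1, a membrane protein used to isolate hepatoblasts that other fetal cells also carry, gave 10.6, 11.4 and 19.5 in bone marrow and 1316, 1104 and 871 in fetal liver. That is 81.3-fold by geometric means (6.35 ± 0.29, limma adjusted p = 5.54e-07). The bone marrow signals lay near the control level, with 2 of 3 arrays above it, so the size of this fold is uncertain. Met, the receptor of hepatocyte growth factor, fell by 3.46 ± 0.29 on the log2 scale (limma adjusted p = 2.84e-05), and Cdh1, the E-cadherin of epithelial junctions, was at least 10.3-fold lower in fetal liver, with all 3 fetal liver arrays below the control level (limma adjusted p = 2.31e-04). Spint2, a protease inhibitor of epithelia, was at 1835 ± 139.7 and 1061 ± 468 (limma adjusted p = 0.0578) on its brightest probe set and was called lower on another (1451935_a_at, -0.73, limma adjusted p = 0.00438).

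Among 15 liver enzyme genes, 0 were called higher and 1 lower by limma (median -0.12; the same counts at an unadjusted p under 0.05), and 9 in bone marrow and 10 in fetal liver were below the control level on every array. The lower one was Fbp1, a gluconeogenic enzyme, at least 8.12-fold lower (limma adjusted p = 1.38e-04). The brightest others, Gnmt, Ass1 and Arg1, had means between 22.8 and 39.3 and limma adjusted p of 0.991, 0.329 and 0.732. Fbp1 was at 87.5 ± 17.3 in bone marrow (SD, n = 3) and below the control level on all fetal liver arrays.

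Receptors and lipid transporters linked to the members were measured together with Lrat, which encodes a retinol-esterifying enzyme. Of these 11 genes, 1 was called higher, 4 lower and 6 not (median -0.12). Tfrc, the receptor of transferrin, was bright in both tissues at 4535 ± 393 and 4093 ± 126 (SD, n = 3 each) and was not called; its log2 fold change of -0.14 turned to 0.19 under median centring. Tfr2, the transferrin receptor of erythroid cells and liver, fell by 1.75 ± 0.30 (limma adjusted p = 0.00260). Scarb1, which takes up lipid from high-density lipoprotein, rose from 2330.3 ± 359 to 3322 ± 378 (limma adjusted p = 0.0200), a call lost in 6 alternatives. Abcg1, which exports cholesterol to such particles, was not called (0.26, limma adjusted p = 0.123), and Abca1, which loads lipid onto Apoa1, fell by 1.21 ± 0.23 (limma adjusted p = 0.00511). Fcgrt, which recycles albumin, fell by 3.23 ± 0.54 (limma adjusted p = 0.00234), and Lrp1 was at least 6.85-fold lower in fetal liver (limma adjusted p = 8.87e-04). Where other probe sets of these genes were dimmer, they often had no call: this holds for Abca1, Apob, Cebpb, Lrp1, Met and Serpinf1. One of the dim Sox9 probe sets was called higher (1433889_at, limma adjusted p = 0.0388) with all 6 arrays below the control level.

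Markers of other cell types also moved between the sorts. All 10 granulocyte genes fell, with a median of -6.02 and a summed signal of 52576 to 66194 in bone marrow and 4409 to 6249 in fetal liver; 10 and 9 of them were above the control level on every array. Of 12 macrophage genes, 9 fell and 3 were not called, with summed signals of 1979 to 2509 and 360 to 474; 9 of them in bone marrow and 6 in fetal liver were above the control level on every array, and 1 and 3 on none. Of 13 erythroid genes, 4 rose and 4 fell, of 11 endothelial genes 3 rose and 1 fell, and of 12 stellate and mesenchymal genes 1 fell. The granulocyte and macrophage genes were lower in fetal liver, as were Afp, Krt18, Hp, Cebpa, Met and Fbp1, and their part in those differences was not tested. The sort excluded lineage-positive cells, per the labels.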

How the data were processed

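RNA of the 6 sorted samples was measured on Affymetrix mouse arrays. The deposited values are linear signal intensities. MAS5 is the tool the submitters' processing notes name, without a version. Measured here, each array has a mean of 500 once 2% of probe sets are trimmed from both ends. Of 45101 probe sets, 64 were controls and 45037 were tested; 34945 had 1 gene symbol, 932 several and 9160 none. All 21 member symbols matched RefSeq (GRCm38.p6) by Entrez identifier.

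Signals were log2-transformed with no offset and no filter. limma 3.58.1 (R 4.3.3) fitted tissue alone with a trended variance prior (4 residual and 6.25 prior degrees of freedom), with Benjamini-Hochberg adjustment over all probe sets and a threshold of 0.05. With 3 against 3, an exact permutation test cannot go below p = 0.1, so none was used. Where a tissue's geometric mean lay below the control level, the fold is a bound against that tissue with each lower array set to the level. A gene outside the members was read by its brightest probe set. Named were all members, and per liver or receptor list the 3 brightest genes and up to 4 called genes with the smallest adjusted p; the same rule holds for the other cell types, which are mostly given as counts. Apob, Prox1 and Hnf4a lie outside it and were chosen after their values were seen. Members and lists were chosen with earlier results of these data known. Some list genes were not analysed here. The number of arrays limits precision. No arrays held identical values.

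On simulated data of 45037 probe sets, the fit found 72% of 100 that had been changed 2-fold, 90% of 100 changed 4-fold and 7 that were unchanged. The changed ones were drawn only from probe sets with a mean log2 signal above the 40th percentile. Only 7 member probe sets lie there, so these shares say nothing about recovery for the dimmer members. The simulated spread followed mean signal alone and did not differ between probe sets of like signal, so the shares need not hold for the real arrays. The labels do not say whether replicate numbers link the tissues. Deviations of same-numbered samples correlated at 0.0013, 0.11 and -0.16. With 3 arrays per tissue, such correlations cannot show whether the samples were paired. Alternatives were 2 filters, quantile normalization, median centring, an offset, a floor, 1 probe set per gene, a robust prior, no trend, array weights, leaving out each array and the replicate number as a block.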

Additional observations from a re-analysis of the deposited data

How the results depend on the processing

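Afp 1416645_a_at, Afp 1416646_at and Krt18 kept their direction and call in every alternative in which they were tested. Member probe sets called lower numbered 3 in all alternatives except the filters at the 40th and 60th percentiles (4 and 1) and 1 probe set per gene (2), which test fewer probe sets. Those called higher, 0 as reported, numbered 1 with the filter at the 40th percentile, a floor at the control level or no variance trend, 2 with 1 probe set per gene, 3 under quantile normalization or a robust prior, 4 under median centring, an offset of 7.54 or array weights, and 0 to 5 when single arrays were left out. The 5 came without bone marrow replicate 1. The median log2 fold change of the members, 0.39, was 0.73 under median centring, 0.82 with array weights, and 0.20 to 0.91 with single arrays left out. The filter at the 40th percentile left 7 member probe sets, with a median of -0.89. The filter at the 60th percentile left only Krt18, so the -1.47 there is its own value.

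Over all probe sets, the calls were 2428 lower with the filter at the 60th percentile, 2284 lower and 1940 higher with 1 probe set per gene, 2533 lower and 1114 higher without a variance trend, 9079 higher under median centring, and 2863 to 4626 lower and 1664 to 3087 higher with single arrays left out. Of the other liver genes, 1 was higher with the filter at the 60th percentile. The number was 5 under quantile normalization, 7 under median centring and 6 with array weights. With single arrays left out 2 to 6 were higher, the 6 without bone marrow replicate 1. Those called lower numbered 6 to 12 over all alternatives, and 7 to 9 with single arrays left out. Against the median of the control probe sets, 16 member probe sets in bone marrow and 20 in fetal liver were above it throughout, and against their maximum 7 in fetal liver.

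Directions that turned all belonged to uncalled results, and the cause was not tested. Afp 1436880_at was 0.29 under median centring, 0.011 with the offset, 0.028 with the floor and 0.26 with array weights, and ran from -1.03 to 1.03 with single arrays left out. On the same footing Afp 1436881_x_at ran from -0.34 to 0.67, Apoa1 1455201_x_at from -0.080 to 0.61, Ttr 1451580_a_at from -0.63 to 0.91 (-0.18 with the floor), Ttr 1454608_x_at from -0.84 to 0.0034, Ahsg from -0.49 to 1.06 (-0.21 with array weights) and Gnmt from -0.33 to 0.24. Rbp4 was -0.0092 with the floor. Hhex and Tfrc were 0.19 each under median centring.

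With the replicate number as a block, a pairing that the labels do not state, 2779 probe sets were higher and 4264 lower. Of the members, 3 were lower and 0 higher, and their median was 0.39. Signals near the control level limit every member but Krt18 and the 3 brighter Afp probe sets.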

Other observations

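The probe sets whose log2 signal was most like that of Alb over the 6 arrays were sought among 22430 with 1 gene symbol and a mean above the 40th percentile, as a description. They were Uhrf1bp1 (Pearson r 0.9958), Slx4ip (0.9946), Tmtc2 (0.9940), Pcgf3 (0.9928) and Smg8 (0.9918). None was called between the tissues (limma adjusted p = 0.0928 to 0.438). None is a gene of the liver lists, but the filter on the mean had left out most of those genes, read by their brightest probe sets. It had also left out most member probe sets. The absence of liver genes here therefore cannot show whether Alb varied together with them. The values share their arrays, and no p is given because the probe sets were picked for their r.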
